A study of Mus musculus with 4 samples.

Results

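The genes described here encode 4 gap junction proteins and 4 tight junction proteins of the epidermis. Their transcripts were measured in cultured mouse keratinocytes labelled as wild type or as deficient in the glucose transporter Glut1. The connexins are Gja1, Gjb2, Gjb5 and Gjb6, and the tight junction genes are Cldn1, Cldn4, Cldn7 and Ocln. They were chosen by symbol: each is the only gene named for its row of the array annotation. All 8 were found, with 1 row each, among 22180 named genes tested. Primary keratinocytes came from 1-week-old C57BL/6J mice, 4 per genotype. Both groups carried floxed alleles of Glut1 (gene Slc2a1). The group labelled wild type (WT) had no Cre, and the group labelled Glut1-deficient also carried Cre under the K14 promoter, which is active in basal keratinocytes. Cells were grown in low-calcium medium (0.05 mM CaCl2 added), reseeded after 3 days at equal number and harvested 1 day later. Each array, of the MoGene-2_0 type, held 2 plates of 1 genotype combined, which gave 2 arrays per genotype. The number of arrays limits the precision.

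Connexins are membrane proteins whose hexamers dock between neighbouring cells and form gap junctions, channels that pass ions and small metabolites. Claudins and occludin are membrane proteins of the tight junction, which seals the space between cells. In the epidermis functional tight junctions lie in the granular layer, and several connexins are expressed in layers of their own. Keratinocytes held in low calcium stay largely without assembled junctions, and raised calcium triggers assembly. Transcript levels therefore say nothing here about assembled junctions.

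Each value is a log2 RMA value, in which a difference of 1 is a factor of 2 in signal, set relative to the other genes of the array. Differences are Glut1-deficient minus WT, fitted with limma over all genes. "Rose" and "fell" mean a Benjamini-Hochberg adjusted p under 0.05. Of all genes tested, 2.84% passed, with 1.79% risen and 1.05% fallen. More genes passed in alternatives used below. They were 2671 of 22180 with the variance following intensity, and 2327 of the 11090 genes kept with dim genes left out. Counts in those settings are to be read against these. The arrays of the genotypes did not overlap for 53.2% of all genes, so non-overlap alone is common here. Two-sided exact permutation of 2 against 2 arrays cannot give p below 0.333.

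The floxed gene, Slc2a1, read 11.13 and 11.05 on the WT arrays and 11.01 on both Glut1-deficient arrays (limma adjusted p = 0.675). A dimmer row of Slc2a1 read 5.18 and 5.09 on WT arrays and 4.80 and 4.44 on Glut1-deficient arrays (limma adjusted p = 0.247 over all rows). Which exons were deleted and where the probes lie are not given in the labels, so these rows check nothing and genotypes are named by their labels. The keratinocyte markers Krt14, Perp and Dsp were bright on these arrays, with means over the 4 arrays of 12.36, 12.01 and 11.68. Of 13 keratinocyte markers tested, 0 rose and 0 fell over all genes in limma (2 higher and 6 lower at unadjusted p under 0.05), with a median log2 fold change of -0.18 against -0.007 for all genes. Those lower were Col17a1 (-0.73), Lamb3 (-0.65), Itgb4 (-0.57), Krt14 (-0.37), Itga6 (-0.31) and Trp63 (-0.29). Those higher were Dsg3 (0.47) and Perp (0.30). The rest were Krt1 (0.34), Krt15 (0.11, dim at a mean of 2.98), Dsp (0.01), Krt10 (-0.04) and Sfn (-0.18). With the variance following intensity 2 of the 13 keratinocyte markers rose and 6 fell, and with dim genes left out 2 rose and 5 fell. Markers of other cell types also differed. Of 13 fibroblast markers, all had positive log2 fold changes with a median of 0.93, and 1 rose, Twist2 (5.28-fold). The 3 brightest fibroblast markers, Pdgfra (log2 fold change 2.15), Dcn (2.01) and Col1a1 (0.99), did not pass. At unadjusted p under 0.05, 10 fibroblast markers were higher and 0 lower. With the variance following intensity 8 of them rose, and with dim genes left out 7 rose, these 3 among them each time. Twist2 was itself left out in the latter as a dim gene. Of 10 melanocyte markers, 5 rose, namely Dct (3.42-fold), Pmel (3.24-fold), Slc45a2 (2.42-fold), Mlana (1.80-fold) and Tyrp1 (2.49-fold). The rest did not pass, with log2 fold changes of 0.29 for Mitf, 0.20 for Kit, 0.08 for Gpr143, 0.05 for Tyr and -0.14 for Sox10. At unadjusted p under 0.05 (limma), 5 melanocyte markers were higher and 0 lower. With the variance following intensity 5 of them rose, and with dim genes left out 4 rose, namely Dct, Pmel, Mlana and Tyrp1. Slc45a2 was itself left out there as a dim gene. The sum of the fibroblast markers, in log2 units, was 8.79 to 8.89 on WT arrays and 9.74 to 10.50 on Glut1-deficient arrays. That of the melanocyte markers was 8.64 to 8.95 and 9.97 to 10.08. Endothelial and immune lists of 10 genes each had 0 risen and 0 fallen in limma (0 higher with 2 lower, and 0 higher with 1 lower, at unadjusted p under 0.05), and medians of -0.03 and -0.05. The endothelial markers Pecam1, Cdh5 and Egfl7 had means of 5.10, 4.07 and 5.75, and the immune markers Cd68, Fcer1g and Cd3e of 8.21, 4.56 and 3.98. In the smooth muscle and pericyte list of 8 genes, Acta2 fell by 0.71 on the log2 scale, 0 rose, and Cnn1 (-0.59) and Tagln (-0.10) did not pass. For extraction, 1500000 cells were taken per WT sample and 1000000 per Glut1-deficient sample, so cell input and genotype cannot be told apart.

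Among the 8 genes, 1 fell, 0 rose and 7 did not pass the test over all genes (limma; 3 lower and 2 higher at unadjusted p under 0.05, which 22.2% of all genes passed). The gene that fell was Gja1. All 4 connexins had negative log2 fold changes and all 4 tight junction genes positive ones. Of all 22180 genes tested, 11448 had negative and 10731 positive values. Each sign of the 8 genes was the same under every alternative in which the gene was tested. Several alternatives leave a log2 fold change as it was, and leaving out 1 array cannot turn the sign where groups do not overlap. The unchanged signs are therefore no added support. Relative to the WT mean of each gene, the median of the connexins was -0.69 on the first Glut1-deficient array and -0.38 on the second. For the tight junction genes these medians were 0.25 and 0.36. In bulk RNA, fewer cells of a type and less RNA per cell cannot be told apart.

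**Figure D1:**
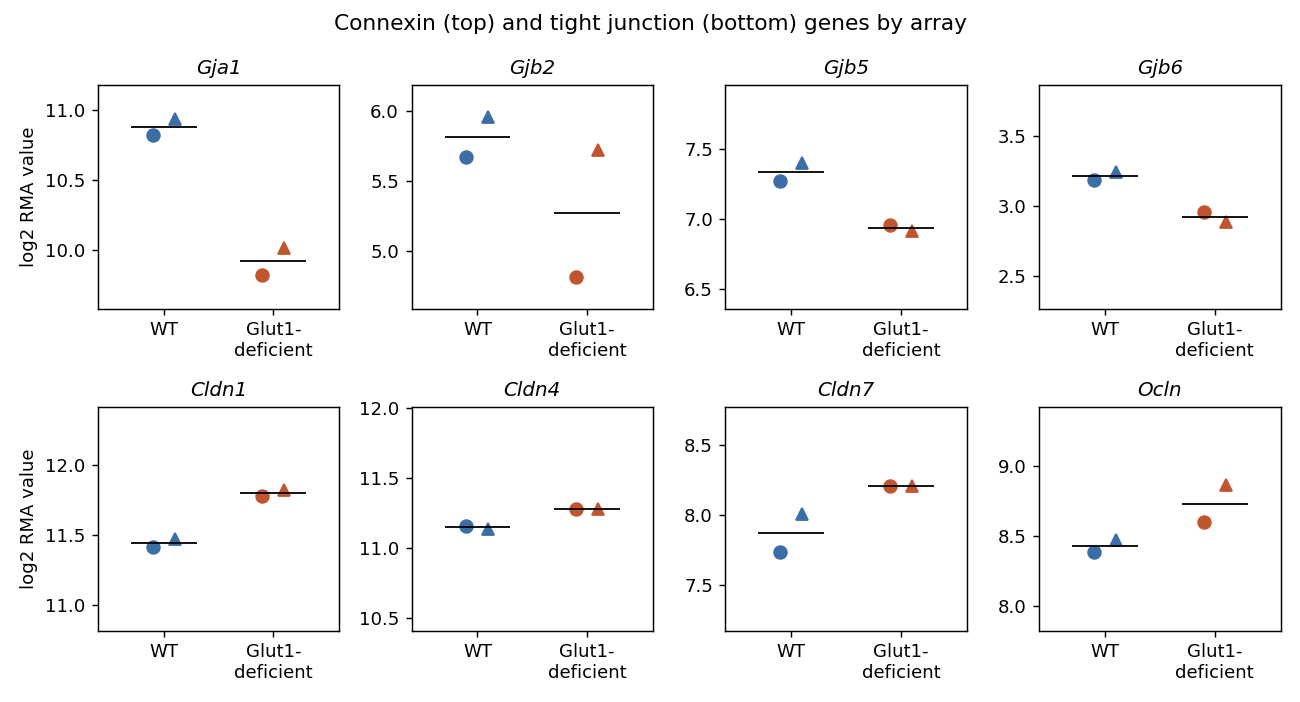
Log2 RMA values (vertical axes, each spanning the same range of 1.6 log2 units) of the 4 connexin genes (top) and the 4 tight junction genes (bottom) on the 2 WT and 2 Glut1-deficient arrays; circles are array 1, triangles array 2 and lines the group means. Gja1 is lower on both Glut1-deficient arrays, near 10 against near 11, and Gjb2 is the only gene of the 8 whose groups overlap.

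Gja1 encodes connexin Cx43, the most widely expressed connexin of mammalian tissues and a gap junction protein of basal and lower suprabasal keratinocytes. It read 10.82 and 10.94 on the WT arrays and 9.82 and 10.02 on the Glut1-deficient arrays. Both Glut1-deficient arrays were thus below both WT arrays, by more than the arrays of a genotype differed from each other. The means were 10.88 ± 0.080 and 9.92 ± 0.14 (SD, n = 2 each), a 1.95-fold lower signal. The log2 fold change was -0.96 (SE 0.11, 95% interval -1.24 to -0.68, limma adjusted p = 0.0295). Of all genes tested, 1.85% had a larger absolute log2 fold change. Leaving out 1 array at a time, which cuts the residual degrees of freedom to 1, ended every call over all genes, that of Gja1 included. The log2 fold change was then -1.02 without WT array 1, -0.90 without WT array 2, -0.86 without Glut1-deficient array 1 and -1.06 without Glut1-deficient array 2 (limma adjusted p of 0.243, 0.227, 0.178 and 0.0919). Gja1 is also expressed by fibroblasts and melanocytes, whose marker lists were higher on the arrays where Gja1 was lower (median log2 fold changes of 0.93 and 0.57). The part of other cell types in the Gja1 value was not tested.

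The other 3 connexins belong to the beta group and had smaller differences that did not pass. Gjb5, a beta connexin of rodent epidermis, read 7.27 and 7.40 on WT arrays and 6.96 and 6.91 on Glut1-deficient arrays, with no overlap. The means of 7.33 ± 0.094 and 6.93 ± 0.033 (SD, n = 2 each) differed by -0.40 (SE 0.094, 95% interval -0.64 to -0.16, limma adjusted p = 0.0987). With a variance that follows intensity, Gjb5 fell (limma adjusted p = 0.028), and it also fell when dim genes were left out (adjusted p = 0.0295).

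Gjb6 encodes Cx30, whose human counterpart is mutated in hidrotic ectodermal dysplasia. It read 3.19 and 3.25 on WT arrays and 2.96 and 2.89 on Glut1-deficient arrays. The groups did not overlap, but the row was dim: 21.6% of all genes had a mean at or below its own. The difference of -0.29 (SE 0.088, 95% interval -0.52 to -0.06) did not pass (limma adjusted p = 0.152). No detection calls were used here, so a level this low was not set against a limit of detection.

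Gjb2 encodes Cx26, which is known to be sparse in resting interfollicular epidermis and induced in wounded and hyperproliferative skin. It read 5.67 and 5.96 on WT arrays and 4.82 and 5.73 on Glut1-deficient arrays. Glut1-deficient array 2 lay between the WT arrays, and only array 1 lay below them. The log2 fold change of -0.55 had a 95% interval of -1.35 to 0.26 (SE 0.31, limma adjusted p = 0.384). It was -0.09 without Glut1-deficient array 1 and -0.998 without Glut1-deficient array 2, so the size of the Gjb2 difference was set by which of these arrays was used. The fibroblast markers were also farther from WT on array 1 (median 1.20 above the WT mean) than on array 2 (0.68), and their part in the Gjb2 values was not tested.

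**Figure D2:**
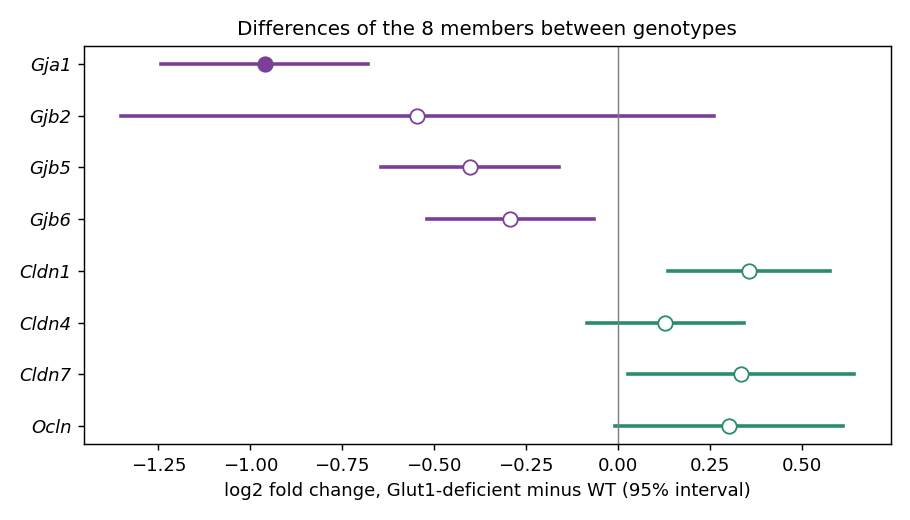
Log2 fold change (Glut1-deficient minus WT, horizontal axis) of each gene with its 95% interval from limma; the filled point passed at an adjusted p under 0.05 and open points did not. Connexins (purple) lie to the left of 0 and tight junction genes (green) to the right, with the interval of Gja1 from -1.24 to -0.68 and those of Gjb2, Cldn4 and Ocln spanning 0.

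The tight junction genes were higher on the Glut1-deficient arrays by up to 1.28-fold, and none of them passed (limma; 2 of them at unadjusted p under 0.05). Cldn1 encodes the claudin without which mice die of water loss through the skin. It read 11.41 and 11.47 on WT arrays and 11.78 and 11.82 on Glut1-deficient arrays, and the groups did not overlap. The means of 11.44 ± 0.039 and 11.80 ± 0.029 (SD, n = 2 each) differed by 0.36 (SE 0.085, 95% interval 0.14 to 0.58, limma adjusted p = 0.103). Cldn1 rose with a variance that follows intensity (limma adjusted p = 0.0028) and when dim genes were left out (adjusted p = 0.0276).

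Cldn7 encodes a claudin that also lies along the lateral membrane outside tight junctions. It read 7.74 and 8.01 on WT arrays and 8.20 and 8.21 on Glut1-deficient arrays, so that the spread was in the WT pair. The log2 fold change was 0.33 (SE 0.12, 95% interval 0.03 to 0.64, limma adjusted p = 0.197), and it was 0.20 without WT array 1 and 0.47 without WT array 2.

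Ocln encodes occludin, a tight junction protein with 4 membrane-spanning segments. It read 8.39 and 8.47 on WT arrays and 8.60 and 8.87 on Glut1-deficient arrays. Both Glut1-deficient arrays were higher, the second by more, and the difference of 0.30 had a 95% interval of -0.009 to 0.61 (SE 0.12, limma adjusted p = 0.236). It was 0.17 without Glut1-deficient array 2.

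Cldn4, a claudin of the upper epidermal layers, differed least. It read 11.16 and 11.14 on WT arrays and 11.28 on both Glut1-deficient arrays. The groups did not overlap, but their means differed by 0.13 (95% interval -0.08 to 0.34, SE 0.083, limma adjusted p = 0.432), and 54.2% of all genes had a larger absolute difference. In all, 3 of the 8 genes did not overlap with the Glut1-deficient arrays below (27.7% of all genes did so) and 4 with these arrays above (25.5% of all genes).

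The sequence just before the annotated start was set beside these values for Gja1, which fell, and for the claudins Cldn1 and Cldn4. It shows which of the letters searched for they hold. RefSeq windows of the GRCm38.p6 build, 250 bases before each start, were found for all 8 genes (10 windows). Capitals mark matches, on either strand, to AACCGGTT (Grainyhead-like), TGANTCA (AP-1), CAGGTG (Snail and ZEB) or GGGCGG (the GC box). The windows lie at chr10:56377050-56377299, plus strand (Gja1), chr16:26371840-26372089, minus strand (Cldn1) and chr5:134946935-134947184, minus strand (Cldn4), each written 5′ to 3′ on the strand of its gene.
Gja1: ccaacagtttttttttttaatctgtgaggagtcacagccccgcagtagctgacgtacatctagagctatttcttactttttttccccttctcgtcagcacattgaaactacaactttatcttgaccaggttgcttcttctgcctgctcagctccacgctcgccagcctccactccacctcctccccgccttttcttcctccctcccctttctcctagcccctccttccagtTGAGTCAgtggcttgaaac
Cldn1: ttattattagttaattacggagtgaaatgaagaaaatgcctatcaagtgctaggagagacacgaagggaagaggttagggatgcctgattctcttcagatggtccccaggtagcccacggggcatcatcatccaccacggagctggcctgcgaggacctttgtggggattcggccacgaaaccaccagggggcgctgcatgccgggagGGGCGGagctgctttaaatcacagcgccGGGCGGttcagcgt
Cldn4: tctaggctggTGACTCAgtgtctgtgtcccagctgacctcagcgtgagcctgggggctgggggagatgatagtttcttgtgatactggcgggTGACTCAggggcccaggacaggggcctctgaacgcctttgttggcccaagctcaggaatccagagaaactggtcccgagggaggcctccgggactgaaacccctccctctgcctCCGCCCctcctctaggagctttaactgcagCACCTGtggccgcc

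In the Gja1 window the single match was TGAGTCA, whose last base lies 13 bases before the start. The Cldn4 window holds TGACTCA at 2 places (last bases 234 and 152 bases before the start), one CACCTG and one CCGCCC. AP-1 letters thus stood before Gja1, which fell, and before Cldn4, which was at 0.13, and 7.82% of the 27025 genes in the table hold them in at least 1 window. GC box letters were in at least 1 window of all 4 tight junction genes and of 1 of the 4 connexins, Gjb2, against 35.4% of all genes. The windows that hold them were 55.6 to 69.2% G or C, against a median of 52.4% over all windows. CAGGTG, on either strand, was found for 3 tight junction genes (Cldn4, Cldn7 and Ocln) and for Gjb2, against 19.4% of all genes. Cldn7 and Ocln have 2 windows each, which gives them more bases to match. AACCGGTT was in none of the windows of the 8 genes and in those of 0.137% of all genes. None of these letters were in the windows of Gjb5 and Gjb6. These matches are a description of the letters in the windows, and binding was not measured.

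Several of the 8 genes lie beside relatives. In the gene order of the reference table, Gjb2 and Gjb6 are neighbours on chromosome 14, with Gja3 on the far side of Gjb2. Gja3, a lens connexin, differed by -0.08 on the log2 scale (limma adjusted p = 0.65). Gja4, an endothelial connexin near Gjb5 on chromosome 4, was at -0.08 and did not pass. Cldn4 lies next to Cldn3 on chromosome 5. Cldn3 read 8.47 and 8.43 on WT arrays and 8.69 and 8.67 on Glut1-deficient arrays, a difference of 0.23 (limma adjusted p = 0.21) against 0.13 for Cldn4. Cldn13, on the other side of Cldn4 with 1 gene between, was at -0.13 and did not pass. Cldn16, next to Cldn1 on chromosome 16, was at 0.18 and did not pass, and it was at 0.0003 without WT array 1 and 0.37 without WT array 2. Ocln lies next to Marveld2, which encodes tricellulin of the same protein family, on chromosome 13. Marveld2 was at 0.64 on the log2 scale (limma adjusted p = 0.0527), against 0.30 for Ocln.

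Most other connexins and claudins were dim in these cells and had small differences. Of 12 other connexins tested, 0 rose and 0 fell (limma; 1 higher and 0 lower at unadjusted p under 0.05), and 11 were below the median level of all genes. Their median log2 fold change was -0.02, against -0.007 for all genes, and it was 0.006 after median centring. Gjc3 (0.46), Gja5 (-0.34), Gja6 (0.15) and Gjd2 (-0.12) had the smallest p. Left-out arrays moved Gjc3 to between 0.26 (without WT array 2) and 0.67 (without WT array 1). They moved Gja5 to between -0.57 (without Glut1-deficient array 1) and -0.12 (without Glut1-deficient array 2). The pannexins, which form channels in single membranes, had 0 of 3 past the test (limma; 0 at unadjusted p under 0.05), with Panx1 at 0.26, Panx2 at -0.06 and Panx3 at 0.0006. Of 21 other claudins, 1 fell, 0 rose and 20 did not pass (median -0.02, or 0.001 after median centring). Cldn6, a claudin of embryonic epithelia, read 6.73 and 6.60 on WT arrays and 6.06 on both Glut1-deficient arrays. It fell by 0.61 on the log2 scale (SE 0.092, limma adjusted p = 0.048), in the direction opposite to the claudins Cldn1, Cldn4 and Cldn7. With any 1 array left out, where every call over all genes was lost, the log2 fold change of Cldn6 ran from -0.67 to -0.54. Cldn23 (0.28), Cldn3 (0.23), Cldn14 (0.28) and Cldn12 (0.24) were the claudins next in order of p, and none passed.

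**Figure D3:**
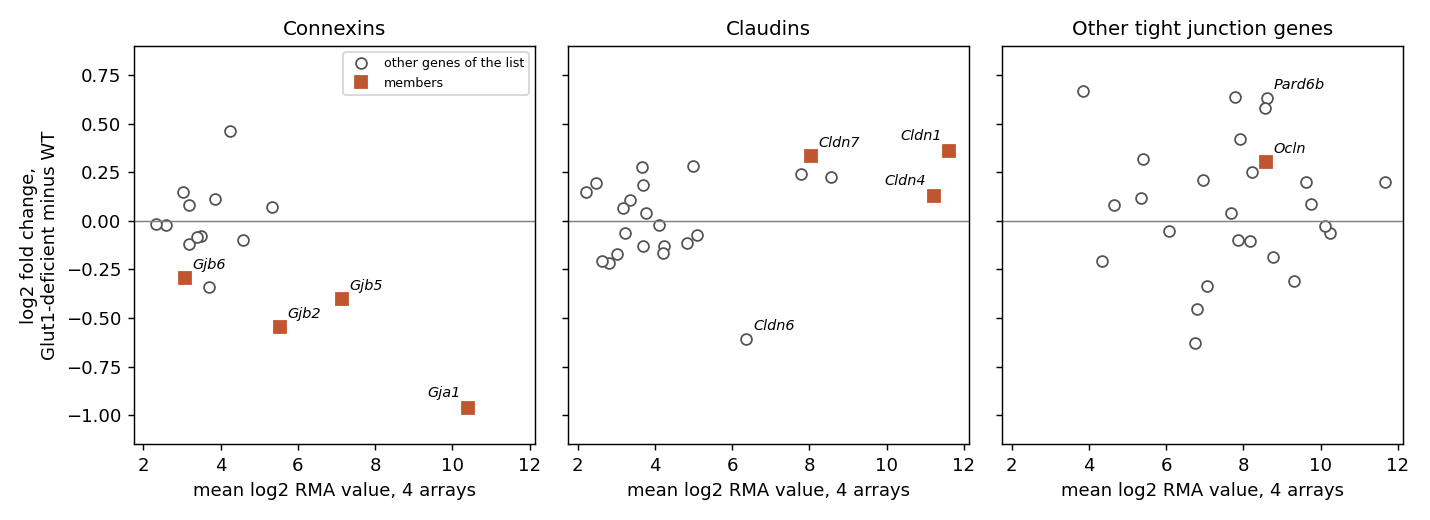
Log2 fold change (Glut1-deficient minus WT, vertical axis) against the mean log2 RMA value over the 4 arrays (horizontal axis, not comparable between genes as an amount) for connexins, claudins and other tight junction genes; filled squares are the 8 genes described and open circles the other genes of each list, with those that passed named. Gja1 and Cldn6 lie lowest in the first 2 panels, and Pard6b is the gene that rose in the third.

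Transcripts of the proteins beneath and beside the tight junction strands mostly did not pass, as for all genes, of which 2.84% passed. Of 25 tested genes of tight junction scaffolds, adhesion molecules and polarity complexes, 1 rose, 0 fell and 24 did not pass. In limma 7 were higher and 4 lower at unadjusted p under 0.05, which 22.2% of all genes passed. The groups did not overlap for 10 with the Glut1-deficient arrays below (27.7% of all genes) and for 13 with these arrays above (25.5%). The median was 0.08. Pard6b, a subunit of the Par polarity complex, read 8.29 and 8.28 on WT arrays and 8.86 and 8.97 on Glut1-deficient arrays, and rose 1.55-fold (limma adjusted p = 0.0433). With any 1 array left out, where every call over all genes was lost, the log2 fold change of Pard6b ran from 0.57 to 0.69. Besides Marveld2, the next genes by p that did not pass were Cxadr, an adhesion receptor of tight junctions, at 0.58 (limma adjusted p = 0.0536), the polarity gene Crb3 at 0.42 (0.0784) and the adhesion gene Jam3 at 0.67 (0.0812). The lower genes with the smallest p were the adhesion gene Jam2 at -0.63 (0.0999), Lsr, which encodes a protein of tricellular contacts, at -0.31 (0.15), Mpdz at -0.34 (0.203) and Magi3 at -0.46 (0.22), the last 2 encoding scaffolds. Lsr has 2 rows, and with the mean of a gene's rows its difference was smaller, at -0.15. The scaffold gene Tjp1, which encodes ZO-1 and also binds Cx43, was at -0.03 (limma adjusted p = 0.908). The number that rose was 3 after median centring (Pard6b, Marveld2 and Cxadr). When dim genes were left out it was 4, with Crb3 added, and 2 fell (Jam2 and Lsr). With the variance following intensity, 7 rose and 2 fell.

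Transcription factors known to act on epithelial junction genes were examined as a list of 11 tested genes. Of these, 2 rose, 0 fell and 9 did not pass (median 0.19). At unadjusted p under 0.05 (limma), 4 were higher and 1 lower. The number that rose was 3 after median centring, with 0 falls. With the variance following intensity, and also with dim genes left out, 3 rose and 1 fell. Ovol1, a zinc finger factor of epidermal differentiation, read 5.87 and 5.74 on WT arrays and 6.72 and 6.90 on Glut1-deficient arrays, and rose 2.01-fold (limma adjusted p = 0.0272). Klf4, a factor of barrier formation, rose 1.84-fold (adjusted p = 0.0216). With any 1 array left out every call over all genes was lost, these among them. The log2 fold changes there ran from 0.92 to 1.10 for Ovol1 and from 0.85 to 0.91 for Klf4. Of the next 4 genes by p, Twist1, a mesenchymal factor also expressed by fibroblasts, was at 0.64 (limma adjusted p = 0.0528). Trp63 was at -0.29 (0.155), Grhl1 at 0.26 (0.204) and Grhl3 at 0.24 (0.276). Twist1 rose and Trp63 fell with the variance following intensity and with dim genes left out. The claudin regulator Grhl2 was at -0.09 and the Snail family gene Snai2 at -0.11, and neither passed.

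**Figure D4:**
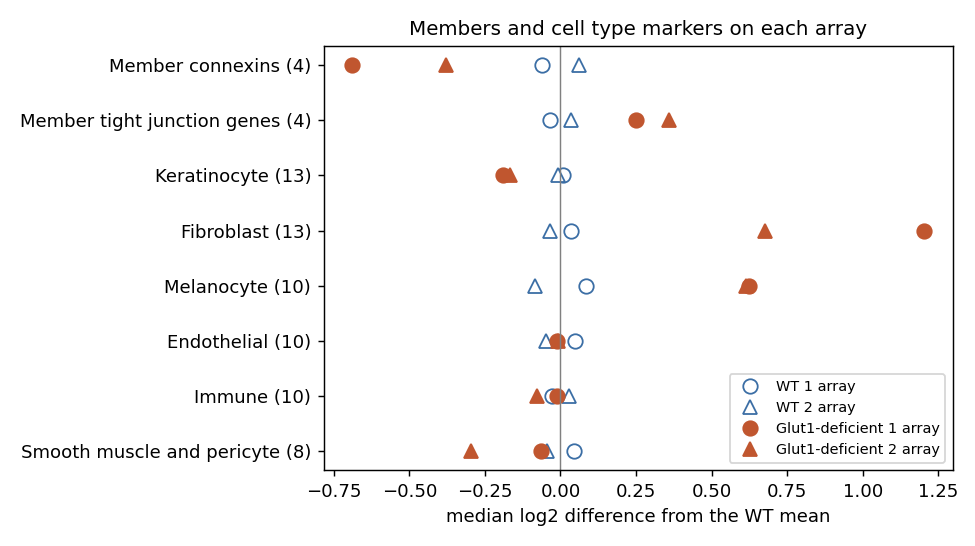
Median log2 difference from the WT mean (horizontal axis) of the 4 connexins, the 4 tight junction genes and each cell type marker list (number of genes in brackets) on each array; open symbols are WT arrays, filled symbols Glut1-deficient arrays. The connexins sit at -0.69 and -0.38 and the tight junction genes at 0.25 and 0.36 on the Glut1-deficient arrays, where the fibroblast markers sit at 1.20 and 0.68.

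Genes with the array pattern most like that of each of the 3 connexins with the largest differences were found by the root mean square difference of values centred on each gene's mean, over the 4 arrays. For Gja1 these were Tmem45a (0.027), Nt5dc2 (0.030) and Dtl (0.036), which had log2 fold changes of -0.91, -0.95 and -0.94. All of them fell (limma adjusted p of 0.0297, 0.0366 and 0.034). Since they were picked for values close to those of Gja1, these calls add no support to its fall. For Gjb5 they were Apoc1 (0.011), Cdca7l (0.012) and Sumf2 (0.016), with log2 fold changes of -0.38, -0.40 and -0.38 that did not pass. For Gjb2 they were H2-DMb2 (0.049), Zfp820 (0.080) and Zdhhc2 (0.098), all lowest on Glut1-deficient array 1. With 4 arrays and 22180 genes to choose from, the likeness is a description only.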

How the data were processed

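The deposited values are log2 intensities of transcript clusters. Per the submitters' processing notes, the authors used Affymetrix Expression Console with RMA, for which no version or setting is stated in the labels. RMA corrects background, equalises the distributions of the arrays and so removes differences in total signal. The table holds 41345 rows, of which 23521 have exactly 1 gene symbol. The row with the highest mean stood for each of 22180 genes. Array medians ran from 4.07 to 4.11. The fit used limma 3.58.1 (R 4.3.3, 2 residual degrees of freedom and a prior worth 2.95, two-sided, Benjamini-Hochberg over all genes). The labels do not say whether the plates combined for different arrays shared mice or days. The p-values thus reflect only how far these pools differ, which may be technical. The replicate arrays were not duplicates (r = 0.9962 and 0.9951 over genes).

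The genes and lists were chosen with earlier results of these data known. Named were the 8 genes, genes of each junction list that passed with up to 4 more by p, up to 3 bright markers and up to 4 that passed per cell type, neighbouring family genes and nearest patterns. Snai2, Grhl2, Tjp1, Jam2, Lsr, Mpdz, Magi3, Col17a1, Lamb3, Itgb4, Itga6 and Dsg3 fall outside this rule and were chosen after their values were seen. The same holds for the keratinocyte markers Krt1, Krt10, Krt15 and Sfn and for the melanocyte markers Mitf, Kit, Gpr143, Tyr and Sox10. Some list genes are not reported here. The planned comparison of protein sequences was not run. Alternatives were a variance trend with and without robust estimation, median centring, leaving out dim genes, testing every row, the mean of a gene's rows, a replicate block and leaving out each array. Figures were drawn with matplotlib 3.10.9.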

Additional observations from a re-analysis of the deposited data

How the results depend on the processing

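The count of genes past the threshold was 630 (397 risen, 233 fallen) in the main setting, with 4923 at unadjusted p under 0.05. It was 2671 (1344 and 1327) with the variance following intensity and 2729 (1368 and 1361) with robust estimation added. With dim genes left out it was 2327 (1214 and 1113) of the 11090 genes kept. In these 3 settings 1 of the 8 genes rose and 2 fell, since Cldn1 (0.36) and Gjb5 (-0.40) passed beside Gja1. Calls were more numerous over all genes in the same settings, so the added calls are not particular to the 8 genes. With all rows as features 0 genes passed (0 risen, 0 fallen; limma, 6694 rows at unadjusted p under 0.05), 0 of the 8 genes fell and Gja1, at -0.96, had an adjusted p of 0.109. Without any 1 array 0 genes passed (0 risen, 0 fallen; limma, 2948 to 4627 at unadjusted p under 0.05), 0 of the 8 genes fell and Gja1 ran from -1.06 to -0.86. Median centring and the mean of a gene's rows left the calls of the 8 genes as they were.

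With the replicate number as a block, 37 genes passed (32 risen, 5 fallen), 0 of the 8 genes fell and Gja1, at -0.96, had an adjusted p of 0.068. The labels do not say what same-numbered arrays share. Their deviations from the group means had a correlation of -0.025 over genes, which does not settle whether mice, days or batches were shared. Over the alternatives, the adjusted p of Gja1 ran from 0.000551 to 0.243, that of Cldn1 from 0.00246 to 0.384 and that of Gjb5 from 0.0271 to 0.351. Gjb6 gave no value with dim genes left out. Signal over background could not be examined without scanner files, which limits what the dim rows of Gjb6 and most other connexins can show.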
